A study of Mus musculus with 15 samples.

Results

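Genes for matrix metalloproteinases, their tissue inhibitors, the ADAMTS proteases, the ADAMTS-like proteins and the lysyl oxidases were followed in inguinal white adipose tissue, the subcutaneous fat pad of the mouse groin. They were chosen by symbol: Mmp, Timp, Adamts, Adamtsl or Loxl followed by a digit, or Lox. The rule matched 56 of the 24015 rows of the count table. Of these, 47 genes reached 0.5 CPM (counts scaled to the library's total) in at least 3 libraries and are the members described here. All but Adamts18, which stood between 0.105 and 0.865 CPM, passed the filter of the test, so 46 members were tested. The other 9 rows lay below the rule. Mmp1a and Mmp1b had 0 counts in every library, Mmp13 and Adamts19 reached 0.5 CPM in 2 libraries each, and Mmp8, Mmp10, Mmp16, Mmp20 and Mmp21 reached it in none.

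Polyadenylated RNA was sequenced from C57BL/6 mice of 2 months (young) or 12 months (aged), with no sex given in the labels. All mice had spent 2 weeks at thermoneutrality, a housing temperature at which little heat needs to be made, and then received CL or vehicle by intraperitoneal injection on 5 days. In the labels CL is spelled out as cardiolipin, but the same letters commonly stand for a β-adrenergic agonist, so the compound is called CL throughout. Vehicle groups are named Young_Ctrl (n = 4 libraries) and Old_Ctrl (n = 3, replicate 2 not analysed here), and CL groups Young_CL and Old_CL (n = 4 each). No label ties a library to an animal of its own. The p-values therefore measure nothing but the spread between these samples, which may be technical.

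The extracellular matrix of fat is laid down mainly by stromal fibroblasts and is remodelled when adipocytes enlarge or when the tissue is stimulated to burn lipid. Matrix metalloproteinases (MMPs) are zinc enzymes, secreted or held at the cell surface, that cut collagens, elastin and other matrix proteins, and the tissue inhibitors of metalloproteinases (TIMPs) bind and block them. ADAMTS enzymes are secreted relatives that cut proteoglycans such as aggrecan and versican, trim procollagen or act on microfibrils. ADAMTS-like proteins share their ancillary domains but have no protease domain, and lysyl oxidases cross-link collagen and elastin fibres.

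Several of the MMP genes lie side by side on mouse chromosome 9, among them Mmp12, Mmp3 and Mmp7, whose levels are described below. The 250 bases upstream of the transcription start of these 3 genes are shown because each holds an AP-1 element, the motif bound by Fos and Jun proteins that is the classical control element of MMP promoters. The sequences are from RefSeq, on the plus strand of GRCm38.p6, at chr9:7347124-7347373 for Mmp12, chr9:7445572-7445821 for Mmp3 and chr9:7691840-7692089 for Mmp7. They are printed 5′ to 3′ up to the last base before the start, with the element in capitals.
Mmp12: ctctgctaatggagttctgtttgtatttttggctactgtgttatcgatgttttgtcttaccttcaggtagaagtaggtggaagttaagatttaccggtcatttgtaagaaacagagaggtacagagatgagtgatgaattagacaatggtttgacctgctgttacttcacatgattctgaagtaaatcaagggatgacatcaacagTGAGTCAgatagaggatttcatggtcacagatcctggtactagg
Mmp3: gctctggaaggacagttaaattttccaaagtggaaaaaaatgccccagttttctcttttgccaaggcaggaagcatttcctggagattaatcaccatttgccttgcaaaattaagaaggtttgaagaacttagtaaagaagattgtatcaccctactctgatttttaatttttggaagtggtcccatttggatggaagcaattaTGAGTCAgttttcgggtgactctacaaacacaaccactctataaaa
Mmp7: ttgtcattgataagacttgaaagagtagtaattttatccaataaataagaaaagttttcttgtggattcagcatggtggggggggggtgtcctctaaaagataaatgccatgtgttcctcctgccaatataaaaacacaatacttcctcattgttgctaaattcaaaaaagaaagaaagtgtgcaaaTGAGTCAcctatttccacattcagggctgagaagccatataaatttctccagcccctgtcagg
The element lay 44 to 38 bases upstream of the start in Mmp12, 46 to 40 in Mmp3 and 63 to 57 in Mmp7. The letters searched were TGANTCA, which reads the same on both strands. Of the 47 members 30 had an entry in the promoter table, and these 3 held the motif in the upstream window, against 6.75% of all 32851 entries. The cAMP element TGACGTCA was present in 1.55% of all entries and in 0 of the 30 members. A match is a stretch of letters and no evidence of binding.

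Library totals ran from 6115542 to 51577001 counts, and 3 counts were worth 0.491 CPM in the shallowest library (Young_CL 3) and 0.0582 in the deepest (Old_Ctrl 3). Summed skeletal muscle markers stood at 2998 to 9032 CPM in 5 libraries (Young_CL 1, 2 and 3, Old_Ctrl 3 and Old_CL 3) and at 66.0 to 459.6 CPM in the others. Markers of B cells and lymph node, a node being embedded in this fat pad, ran from 1418 to 1953 CPM in Young_Ctrl, 810 to 1183 in Young_CL, 468 to 979.5 in Old_Ctrl and 431 to 569 in Old_CL. They thus moved with both age and CL. Adipocyte markers ran from 15172 to 36523 CPM in Young_Ctrl, 34497 to 39885 in Young_CL, 28329 to 42215 in Old_Ctrl and 50340 to 62635 in Old_CL. By the edgeR test described below, 7 of the 10 rose with CL in young mice (21.7% of all genes) and 8 in aged mice (23.1%). With age 2 were higher under vehicle (15.1% of all genes) and 6 under CL (20.5%), and 0 were lower in any of these. Their part in the member changes was not tested. Old_CL 1, 2 and 4 resembled one another most, with a robust SD of the log2 ratio of 0.0636 to 0.0933 against 0.116 to 0.747 in the remaining within-group pairs, and were counted as 3 samples as labelled. Young_CL 4 was the lowest library of its group for 25 of the 46 tested members (31.7% of all genes), and Old_Ctrl 3 was the lowest of its group for 25 (34.0% of all genes).

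Aged vehicle fat had higher levels of many members than young vehicle fat, and CL lowered many members in aged mice. Differences were tested with edgeR across all 15288 tested genes, and a gene was called when its Benjamini-Hochberg adjusted p was under 0.05. With age under vehicle 18 members rose and 2 fell, or 43.5% of the 46, against 27.2% of all genes called. With CL in aged mice 4 rose and 21 fell, 54.3%, against 45.2% of all genes. With CL in young mice 8 rose and 5 fell, 28.3%, against 43.9% of all genes. Between the ages under CL 12 were higher and 4 lower in aged mice, 34.8%, against 40.0% of all genes. The CL effect differed between the ages (the age by CL interaction) for 6 members, 13.0%, against 7.08% of all genes. In 2 of these it was higher in aged mice (3.31% of all genes) and in 4 lower (3.77%).

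The median log2 change of the tested members was 0.59 with age under vehicle (0.03 over all genes), -0.60 with CL in aged mice (-0.01 over all genes), -0.26 with CL in young mice (-0.07) and 0.06 with age under CL (-0.01). Over all genes 22.2% fell and 23.1% rose with CL in aged mice, 15.1% rose and 12.2% fell with age under vehicle, 21.7% rose and 22.1% fell with CL in young mice, and 20.5% were higher and 19.4% lower with age under CL. With upper-quartile scaling the young CL split of 8 higher and 5 lower became 8 and 11, with a median of all genes of -0.15. The age comparison under vehicle and the CL comparison in aged mice share the Old_Ctrl libraries, and each other pair that has a group in common shares it likewise, so opposite directions in them are not independent.

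**Figure D1:**
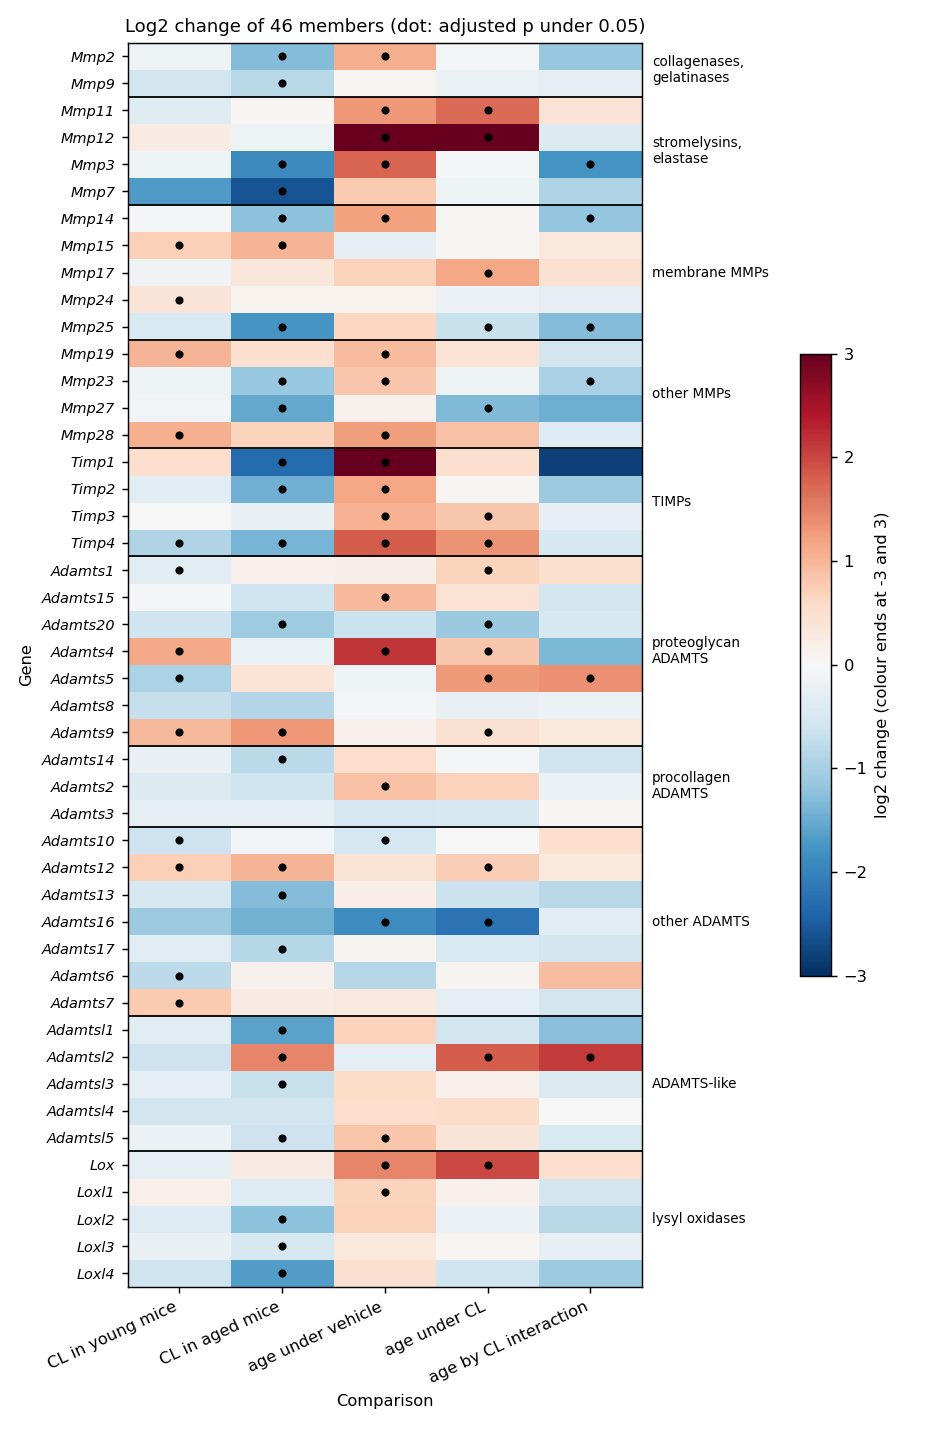
Log2 change of each of the 46 tested members (rows, by class) in the 4 pairwise comparisons and the interaction (columns), as colour that ends at -3 and 3, with a black dot where the adjusted p was under 0.05. The column of age under vehicle holds 18 called increases, and that of CL in aged mice 21 called decreases.

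How far the calls depended on single libraries and on the B cell markers bears on all that follows. Leaving out 1 library at a time left 10 to 15 members called with CL in young mice, 19 to 29 with CL in aged mice, 11 (without Old_Ctrl 4) to 24 (without Old_Ctrl 3) with age under vehicle, 13 to 20 with age under CL, and 1 (without Old_Ctrl 4) to 12 (without Young_CL 4) in the interaction. In the same order, all-gene counts were 5418 to 7609, 5599 to 7401, 1739 to 5851, 4849 to 6724 and 431 to 2070. With the B cell marker score as a covariate, edgeR called 19 members with CL in aged mice, 3 with CL in young mice, 6 with age under CL and 0 with age under vehicle. Of all 15288 genes, that fit called 3985 with CL in aged mice, 1296 with CL in young mice and 2323 with age under CL. The calls kept there were Adamts9, Adamts5 and Timp4 with CL in young mice and Mmp11, Adamts1, Lox and Adamtsl2 with age under CL. Those lost with CL in aged mice were Adamts13, Adamts14, Adamts17, Adamts20, Adamtsl3, Loxl3, Mmp7 and Timp1. With age under vehicle 29 of all genes were called in that fit by the adjusted p. At an unadjusted p under 0.05, 9 members were higher and 1 lower. That threshold is looser and all genes were not counted at it, so the 2 counts cannot be compared. The B cell score ran from 7.192 to 7.829 in Young_Ctrl, 6.212 to 6.769 in Young_CL, 5.44 to 6.653 in Old_Ctrl and 5.106 to 5.557 in Old_CL. It thus separates the age groups under vehicle and under CL, and the young groups, and overlaps between the aged groups alone. Where it separates the groups, the part of lymph node content cannot be told apart from that of age or CL, for lost and kept calls alike. Leaving out the 5 muscle-rich libraries leaves Young_CL 4 alone in its group, with 2 Old_Ctrl and 3 Old_CL libraries. The change with CL in young mice then went from -0.56 to -1.87 for Mmp9 and from -0.16 to -1.07 for Mmp23. For Mmp27 it went from -0.08 to -2.47 and for Adamts2 from -0.4 to -1.7. In that fit the median change of the members with CL in young mice was -0.54, against -0.1 over all genes. Calls lost without 1 library or in another fit, the B cell covariate and the replicate block apart, are given with each member below. For the lists of other proteases and of substrates, single genes were not followed through these fits. In a bulk sample fewer cells of a type and less RNA per cell cannot be told apart.

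The gelatinases Mmp2 and Mmp9 cut denatured collagen and basement membrane collagen. Mmp2 stood at 165, 206, 148 and 171 CPM in Young_Ctrl and 161, 218, 168 and 70.4 in Young_CL. The aged Mmp2 values were 412, 287 and 409.9 in Old_Ctrl and 154, 150.4, 144 and 151 in Old_CL. Old_Ctrl lay above all other groups with no overlap, and the lowest library of all was Young_CL 4. Mmp2 was higher in aged than in young vehicle mice (edgeR log2 change 1.10, SE 0.25, adjusted p = 0.0069) and fell with CL in aged mice (edgeR log2 change -1.30, SE 0.25, adjusted p = 9.3e-04), whereas its change with CL in young mice was -0.16 (edgeR adjusted p = 0.62). Without the 5 muscle-rich libraries the young change was -1.30 and was called (edgeR adjusted p = 0.0011), with Young_CL 4 alone in its group. Mmp9, abundant in neutrophils and macrophages, stood at 22.4, 24.4, 12.9 and 16.4 CPM in Young_Ctrl and 16.5, 13.5, 15.9 and 5.17 in Young_CL. The aged Mmp9 values were 21.5, 17.5 and 20.8 in Old_Ctrl and 11.4, 9.97, 12.6 and 10.2 in Old_CL. It fell with CL in aged mice (edgeR log2 change -0.84, SE 0.29, adjusted p = 0.028), a call lost without Old_Ctrl 1 or 4 or Old_CL 2 or 4, or with Old_CL 1, 2 and 4 summed (adjusted p = 0.062 to 0.13). Neutrophil markers summed to 8.92 to 36.5 CPM over all libraries, and their part in the Mmp9 values was not tested.

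Mmp3, Mmp11, Mmp12 and Mmp7 form the group of stromelysins, macrophage elastase and matrilysin. Mmp3, stromelysin-1, cuts proteoglycans and activates other pro-MMPs, and stood at 30.6, 35.9, 33.5 and 45.6 CPM in Young_Ctrl and 37.6, 47.6, 31.6 and 15.4 in Young_CL. The aged Mmp3 values were 129, 80.8 and 158 in Old_Ctrl and 32.6, 28.6, 35.1 and 32.4 in Old_CL. The 3 aged vehicle libraries were all above the other 12. Mmp3 was higher with age under vehicle (edgeR log2 change 1.74, SE 0.28, adjusted p = 0.0013) and fell with CL in aged mice (edgeR log2 change -1.92, SE 0.28, adjusted p = 1.5e-04), with a change of -0.13 (edgeR adjusted p = 0.71) in young mice. Against the lone Young_CL 4, without the muscle-rich libraries, the young change was called too (log2 change -1.26, edgeR adjusted p = 0.0044). The difference between the CL effects at the 2 ages was called (edgeR log2 change -1.79, SE 0.39, adjusted p = 0.017), a call lost without Old_Ctrl 4, with Old_CL 1, 2 and 4 summed, or without the 5 muscle-rich libraries (adjusted p = 0.055 to 0.15, log2 change -0.94 without the 5 muscle-rich libraries). Mmp11, stromelysin-3, is activated inside the cell by furin and stood at 11.8, 10.6, 7.36 and 6.40 CPM in Young_Ctrl and 6.0, 6.68, 8.62 and 6.87 in Young_CL. The aged Mmp11 values were 21.9, 19.3 and 24.0 in Old_Ctrl and 22.3, 23.4, 23.9 and 21.0 in Old_CL. Every aged library lay above every young one, under vehicle (edgeR log2 change 1.29, SE 0.18, adjusted p = 4.1e-04) and under CL (edgeR log2 change 1.71, SE 0.17, adjusted p = 4.3e-06), and of the alternatives run only the B cell covariate ended a call, that under vehicle.

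Mmp12, macrophage elastase, had the largest rise of all members with age. It stood at 2.10, 3.87, 4.73 and 2.78 CPM in Young_Ctrl and 7.06, 2.68, 1.82 and 3.47 in Young_CL. The aged Mmp12 values were 74.6, 4.39 and 116 in Old_Ctrl and 44.3, 41.9, 98.7 and 45.0 in Old_CL. In Old_Ctrl libraries 1 and 4 were high and library 3 was within the range of the young libraries, while all 4 Old_CL libraries were above all young CL libraries. The rise was called under vehicle (edgeR log2 change 4.22, SE 0.87, adjusted p = 0.0054) and under CL (edgeR log2 change 3.81, SE 0.81, adjusted p = 0.0031). Under vehicle it was 3.42 without Old_Ctrl 4 and was not called by limma-voom (log2 change 3.22, adjusted p = 0.10). The summed level of 10 macrophage markers ran from 1679 to 2111 CPM in Young_Ctrl, 964 to 2142 in Young_CL, 2485 to 4804 in Old_Ctrl and 1715 to 2572 in Old_CL. Of these markers 8 were called higher with age under vehicle, against 15.1% of all genes. With CL in aged mice 7 fell (22.2% of all genes), where the change of Mmp12 was -0.16 (edgeR adjusted p = 0.88), or -1.13 (edgeR adjusted p = 0.0039) without the 5 muscle-rich libraries. With age under CL 2 of the markers were higher, against 20.5% of all genes. No macrophage marker was at 0 in every library, and their part in the Mmp12 difference was not tested. Mmp7, matrilysin, averaged 0.354 ± 0.329 CPM in Young_Ctrl, 0.121 ± 0.0364 in Young_CL, 0.758 ± 0.343 in Old_Ctrl and 0.0876 ± 0.0747 in Old_CL (SD), near the level of 3 counts, and was called lower with CL in aged mice (edgeR log2 change -2.60, SE 0.62, adjusted p = 0.0034, log2 change -3.34 without the 5 muscle-rich libraries).

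Among membrane-type MMPs, Mmp14 is the surface collagenase that activates pro-MMP2 together with TIMP2. It stood at 65.4, 90.9, 64.4 and 73.8 CPM in Young_Ctrl and 68.7, 88.1, 77.2 and 47.3 in Young_CL. The aged Mmp14 values were 212, 119 and 177 in Old_Ctrl and 69.5, 74.8, 74.6 and 70.5 in Old_CL. Old_Ctrl was above all other groups. Mmp14 rose with age under vehicle (edgeR log2 change 1.20, SE 0.20, adjusted p = 0.0012) and fell with CL in aged mice (edgeR log2 change -1.22, SE 0.20, adjusted p = 2.3e-04), and the 2 CL effects differed (edgeR log2 change -1.16, SE 0.27, adjusted p = 0.021). That difference was no longer called without Old_Ctrl 1 or 4, with Old_CL 1, 2 and 4 summed, or without the 5 muscle-rich libraries (adjusted p = 0.053 to 0.18). Mmp25, a lipid-anchored enzyme known from leukocytes, stood at 5.39, 6.62, 7.59 and 8.90 CPM in Young_Ctrl and 4.53, 3.56, 7.62 and 6.06 in Young_CL. The aged Mmp25 values were 10.8, 12.5 and 10.1 in Old_Ctrl and 4.14, 3.38, 2.38 and 3.45 in Old_CL. It fell with CL in aged mice with no overlap (edgeR log2 change -1.76, SE 0.24, adjusted p = 6.6e-05), and was lower in aged than young CL mice (edgeR log2 change -0.67, SE 0.23, adjusted p = 0.032), the second call being lost without Young_CL 3 or 4 or Old_CL 2, 3 or 4, with limma-voom, with Old_CL 1, 2 and 4 summed, or without the 5 muscle-rich libraries (adjusted p = 0.051 to 0.12). Its interaction (edgeR log2 change -1.30, SE 0.33, adjusted p = 0.029) was lost without Young_Ctrl 2 or Old_Ctrl 3 or 4 or Old_CL 2 or 4, with Old_CL 1, 2 and 4 summed, or without the 5 muscle-rich libraries (adjusted p = 0.052 to 0.14).

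Mmp15 differed in pattern from Mmp14, being higher under CL at both ages. It stood at 24.3, 17.1, 13.1 and 13.4 CPM in Young_Ctrl and 26.4, 28.0, 25.8 and 28.9 in Young_CL. The aged Mmp15 values were 12.7, 14.7 and 13.8 in Old_Ctrl and 28.0, 29.6, 27.5 and 27.1 in Old_CL. Within each age every CL library was above every vehicle library (edgeR log2 change 0.71, SE 0.15, adjusted p = 0.0016 in young and edgeR log2 change 1.02, SE 0.16, adjusted p = 2.1e-04 in aged mice). Mmp24 stood at 35.3, 27.1, 26.2 and 23.9 CPM in Young_Ctrl and 37.4, 40.1, 36.8 and 30.9 in Young_CL. The aged Mmp24 values were 26.2, 29.3 and 33.9 in Old_Ctrl and 31.9, 32.2, 34.1 and 30.1 in Old_CL. The groups overlapped. It was called higher with CL in young mice (edgeR log2 change 0.38, SE 0.12, adjusted p = 0.018), a call lost without Young_Ctrl 3 or 4 or Young_CL 2, without the 5 muscle-rich libraries, or with the muscle score as a covariate (adjusted p = 0.052 to 0.63). Mmp17, another lipid-anchored form, averaged 1.93 ± 0.660 CPM in Young_Ctrl, 1.88 ± 0.461 in Young_CL, 3.21 ± 0.537 in Old_Ctrl and 4.02 ± 0.839 in Old_CL (SD) and was higher with age under CL (edgeR log2 change 1.15, SE 0.25, adjusted p = 0.0021), though not without the 5 muscle-rich libraries (adjusted p = 0.13).

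Mmp19, Mmp28, Mmp23 and Mmp27 stand outside those classes. Mmp19 stood at 58.5, 40.3, 32.4 and 33.3 CPM in Young_Ctrl and 87.8, 79.4, 80.7 and 85.3 in Young_CL. The aged Mmp19 values were 90.8, 42.7 and 103 in Old_Ctrl and 106, 108, 113 and 113 in Old_CL. All Young_CL libraries were above all Young_Ctrl ones, and all Old_CL libraries were above all Old_Ctrl ones. The rise with CL was called in young mice (edgeR log2 change 1.03, SE 0.22, adjusted p = 0.002) and not in aged mice (0.49, edgeR adjusted p = 0.11), except without Old_Ctrl 4 (0.74, edgeR adjusted p = 0.031). Mmp19 was also higher with age under vehicle (edgeR log2 change 0.94, SE 0.24, adjusted p = 0.011), but not without Old_Ctrl 4, or with the 2 groups fitted alone (adjusted p = 0.068 to 0.078). Mmp28, epilysin, stood at 21.8, 10.7, 7.94 and 5.18 CPM in Young_Ctrl and 18.4, 18.4, 27.3 and 27.9 in Young_CL. The aged Mmp28 values were 29.4, 15.1 and 34.6 in Old_Ctrl and 44.1, 43.0, 35.5 and 43.8 in Old_CL. All Old_CL libraries were above all Young_CL ones, but this age difference was not called (0.87, edgeR adjusted p = 0.055). It was called by limma-voom (log2 change 0.95, adjusted p = 0.015) and by DESeq2 (0.83, adjusted p = 0.03). By edgeR it was called with the 2 groups fitted alone, or without Young_Ctrl 1, Young_Ctrl 4 or Old_Ctrl 3. The young vehicle libraries of Mmp28 were spread widely and overlapped those of Young_CL. Its calls with CL in young mice (edgeR log2 change 1.06, SE 0.36, adjusted p = 0.029) and with age under vehicle (edgeR log2 change 1.26, SE 0.38, adjusted p = 0.026) were lost without Young_Ctrl 2, 3 or 4 or Young_CL 3 or 4, or without the 5 muscle-rich libraries (adjusted p = 0.057 to 0.092) and without Young_Ctrl 3 or 4 or Old_Ctrl 1 or 4, or with the 2 groups fitted alone (adjusted p = 0.065 to 0.14) respectively.

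Mmp23 stood at 19.1, 26.4, 19.6 and 23.0 CPM in Young_Ctrl and 20.6, 26.2, 21.4 and 10.6 in Young_CL. The aged Mmp23 values were 38.5, 39.4 and 39.9 in Old_Ctrl and 17.8, 17.7, 17.5 and 18.4 in Old_CL. Old_Ctrl was above all other groups with no overlap. It rose with age under vehicle (edgeR log2 change 0.83, SE 0.20, adjusted p = 0.0079) and fell with CL in aged mice (edgeR log2 change -1.14, SE 0.20, adjusted p = 3.9e-04), and its interaction (edgeR log2 change -0.98, SE 0.28, adjusted p = 0.043) was lost without Young_Ctrl 1, 3 or 4 or Young_CL 1, 2 or 3 or Old_Ctrl 1, 3 or 4 or Old_CL 1, 2, 3 or 4, with Old_CL 1, 2 and 4 summed, without the 5 muscle-rich libraries, or with the muscle score as a covariate (adjusted p = 0.051 to 0.95, log2 change -0.05 without the 5 muscle-rich libraries). Mmp27 averaged 4.39 ± 1.65 CPM in Young_Ctrl, 4.18 ± 2.37 in Young_CL, 4.84 ± 0.0772 in Old_Ctrl and 1.68 ± 0.255 in Old_CL (SD). It was lower in Old_CL than in Old_Ctrl (edgeR log2 change -1.54, SE 0.43, adjusted p = 0.0092) and than in Young_CL (edgeR log2 change -1.33, SE 0.41, adjusted p = 0.018), and the second of these calls was lost without Young_CL 2 or Old_CL 3, with limma-voom, with Old_CL 1, 2 and 4 summed, without the 5 muscle-rich libraries, or with the muscle score as a covariate (adjusted p = 0.053 to 0.26, log2 change 1.10 without the 5 muscle-rich libraries).

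All 4 TIMPs were higher in aged than in young vehicle mice, where 15.1% of all genes rose, and 3 of the 4 fell with CL in aged mice, where 22.2% of all genes fell. Timp1 is counted in both, and both of its calls were lost without Old_Ctrl 1 or with limma-voom. Timp2, which inhibits MMPs and also takes part with MMP14 in the activation of pro-MMP2, stood at 457, 544, 499 and 588 CPM in Young_Ctrl and 453, 581, 482 and 128 in Young_CL. The aged Timp2 values were 988, 1137 and 1367 in Old_Ctrl and 417, 409.7, 459 and 426 in Old_CL. Old_Ctrl was above every other library, and Young_CL 4 was far below the rest of its group. Timp2 rose with age under vehicle (edgeR log2 change 1.16, SE 0.32, adjusted p = 0.017) and fell with CL in aged mice (edgeR log2 change -1.44, SE 0.32, adjusted p = 0.0023). The age call was lost without Old_Ctrl 4, or with limma-voom (adjusted p = 0.062 to 0.077). With CL in young mice Timp2 changed by -0.34 (edgeR adjusted p = 0.37). Without the 5 muscle-rich libraries, with Young_CL 4 alone in its group, that change was -2.03. Its age difference under CL was then 1.67, against 0.06 with all libraries. Timp3, the TIMP that binds to the matrix and also inhibits ADAM and ADAMTS enzymes, stood at 327, 327, 284 and 247 CPM in Young_Ctrl and 263, 315, 286 and 324 in Young_CL. The aged Timp3 values were 428, 669.6 and 738 in Old_Ctrl and 527, 526, 476 and 556 in Old_CL. All aged libraries were above all young ones of the same treatment, under vehicle (edgeR log2 change 1.05, SE 0.16, adjusted p = 7.7e-04) and under CL (edgeR log2 change 0.81, SE 0.15, adjusted p = 7.8e-04). The call under CL was lost without the 5 muscle-rich libraries (adjusted p = 0.14), and the change with CL was 0.01 (edgeR adjusted p = 0.98) in young and -0.23 (edgeR adjusted p = 0.26) in aged mice. The latter was called without Old_Ctrl 1 (-0.43, edgeR adjusted p = 0.025).

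Timp4 moved in every pairwise comparison. It stood at 176, 109, 78.8 and 60.2 CPM in Young_Ctrl and 46.3, 63.0, 49.2 and 65.0 in Young_CL. The aged Timp4 values were 394, 295 and 427 in Old_Ctrl and 132, 162, 137 and 137 in Old_CL. Aged libraries were above young ones under each treatment, and CL libraries of aged mice were below all vehicle libraries of aged mice, whereas the young groups overlapped in 1 stretch from 60.2 to 65.0 CPM. With CL it fell in young (edgeR log2 change -0.91, SE 0.25, adjusted p = 0.0089) and in aged mice (edgeR log2 change -1.39, SE 0.27, adjusted p = 8.1e-04), and with age it was higher under vehicle (edgeR log2 change 1.82, SE 0.27, adjusted p = 6.5e-04) and under CL (edgeR log2 change 1.34, SE 0.25, adjusted p = 8.8e-04). The young CL call was lost without the 5 muscle-rich libraries (adjusted p = 0.28), and the age call under CL without the 5 muscle-rich libraries (adjusted p = 0.14). Timp1, the inducible inhibitor, stood at 1.84, 2.06, 1.29 and 1.0 CPM in Young_Ctrl and 3.76, 1.76, 1.99 and 0.566 in Young_CL. The aged Timp1 values were 37.0, 2.10 and 7.57 in Old_Ctrl and 2.50, 1.76, 4.94 and 2.45 in Old_CL. The library Old_Ctrl 1 lay far above all others. The calls with age under vehicle (edgeR log2 change 3.29, SE 0.82, adjusted p = 0.011) and with CL in aged mice (edgeR log2 change -2.30, SE 0.74, adjusted p = 0.023) rested on it: the first was lost without Old_Ctrl 1, or with limma-voom (adjusted p = 0.057 to 0.20, log2 change 1.67 without Old_Ctrl 1, log2 change 1.76 with limma-voom), and the second without Old_Ctrl 1 or Old_CL 1, 2 or 4, with limma-voom, with the 2 groups fitted alone, or with Old_CL 1, 2 and 4 summed (adjusted p = 0.051 to 0.47, log2 change -0.68 without Old_Ctrl 1, log2 change -0.72 with limma-voom, log2 change -3.25 without the 5 muscle-rich libraries).

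Among the ADAMTS enzymes that cut proteoglycans, Adamts5 and Adamts4 are the aggrecanases. Adamts5 stood at 168, 152, 138 and 126 CPM in Young_Ctrl and 87.9, 87.1, 86.7 and 36.6 in Young_CL. The aged Adamts5 values were 123, 153 and 126 in Old_Ctrl and 155, 184, 219.5 and 159 in Old_CL. All Young_CL libraries were below all Young_Ctrl ones, Young_CL 4 by a wide margin, while the Old_CL libraries were above the Old_Ctrl ones. It fell with CL in young mice (edgeR log2 change -0.96, SE 0.22, adjusted p = 0.0025) and was not called in aged mice (0.42, edgeR adjusted p = 0.16). The aged rise was called without Young_CL 4 (0.42, edgeR adjusted p = 0.019) or with the muscle score as a covariate (0.44, edgeR adjusted p = 0.033). Without the 5 muscle-rich libraries the aged change was 0.41. The difference between the CL effects at the 2 ages was called (edgeR log2 change 1.38, SE 0.32, adjusted p = 0.02). It was not called without Old_Ctrl 4, or with Old_CL 1, 2 and 4 summed (adjusted p = 0.06 to 0.074, log2 change 2.41 without the 5 muscle-rich libraries). Without the 5 muscle-rich libraries, with Young_CL 4 alone in its group, the young change was -2.0 and the age difference under CL 2.15. The fit of all libraries gave a higher level in aged mice under CL (edgeR log2 change 1.27, SE 0.22, adjusted p = 4.5e-04).

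Adamts4 stood at 0.395, 0.946, 0.701 and 0.390 CPM in Young_Ctrl and 1.09, 1.10, 0.994 and 2.26 in Young_CL. The aged Adamts4 values were 3.75, 2.19 and 2.62 in Old_Ctrl and 2.21, 2.19, 2.85 and 2.11 in Old_CL. Within the vehicle groups and within the young groups the libraries did not overlap. Adamts4 was higher with age under vehicle (edgeR log2 change 2.15, SE 0.35, adjusted p = 0.001) and with CL in young mice (edgeR log2 change 1.14, SE 0.35, adjusted p = 0.016). The young CL call was lost without Young_Ctrl 4 or Young_CL 4 (adjusted p = 0.056 to 0.063, log2 change 1.86 without the 5 muscle-rich libraries). Its age difference under CL (edgeR log2 change 0.80, SE 0.30, adjusted p = 0.043) was lost without Young_Ctrl 3 or Young_CL 1, 2 or 3 or Old_CL 1, 2, 3 or 4, with RLE factors, with upper-quartile factors, with Old_CL 1, 2 and 4 summed, or without the 5 muscle-rich libraries (adjusted p = 0.051 to 0.91, log2 change -0.09 without the 5 muscle-rich libraries).

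Adamts9 and Adamts1 cut versican and other large proteoglycans. Adamts9 stood at 19.5, 18.7, 15.9 and 11.1 CPM in Young_Ctrl and 25.5, 28.9, 30.0 and 42.7 in Young_CL. The aged Adamts9 values were 19.9, 15.9 and 18.2 in Old_Ctrl and 47.9, 45.6, 35.4 and 46.2 in Old_CL. At each age the CL libraries were all above the vehicle libraries (edgeR log2 change 0.97, SE 0.18, adjusted p = 6.1e-04 in young and edgeR log2 change 1.29, SE 0.20, adjusted p = 1.4e-04 in aged mice). Its smaller age difference under CL (edgeR log2 change 0.46, SE 0.17, adjusted p = 0.045) was lost without Young_Ctrl 3 or Young_CL 1, 2 or 3 or Old_Ctrl 4 or Old_CL 1, 2 or 4, with RLE factors, with upper-quartile factors, with Old_CL 1, 2 and 4 summed, without the 5 muscle-rich libraries, or with the muscle score as a covariate (adjusted p = 0.053 to 0.83). Adamts1 stood at 37.8, 34.2, 30.1 and 24.9 CPM in Young_Ctrl and 25.6, 25.3, 26.0 and 22.7 in Young_CL. The aged Adamts1 values were 39.6, 33.3 and 34.8 in Old_Ctrl and 39.6, 42.2, 34.0 and 42.2 in Old_CL. It was higher in every Old_CL than in every Young_CL library (edgeR log2 change 0.66, SE 0.12, adjusted p = 4.9e-04), and its fall with CL in young mice (edgeR log2 change -0.34, SE 0.12, adjusted p = 0.028) was lost without Young_Ctrl 1 or 2 or Young_CL 2 or 4, with limma-voom, with the 2 groups fitted alone, without the 5 muscle-rich libraries, or with the muscle score as a covariate (adjusted p = 0.051 to 0.11).

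Adamts15, Adamts20 and Adamts8 complete that class. Adamts15 stood at 16.0, 16.6, 21.4 and 18.1 CPM in Young_Ctrl and 18.4, 17.1, 17.4 and 16.4 in Young_CL. The aged Adamts15 values were 41.4, 14.3 and 51.9 in Old_Ctrl and 24.9, 27.1, 17.6 and 24.5 in Old_CL. Old_Ctrl 3 was below every young vehicle library, and Old_Ctrl 1 and 4 were above them. Its call with age under vehicle (edgeR log2 change 0.97, SE 0.30, adjusted p = 0.027) was lost without Young_Ctrl 1, 2 or 4 or Old_Ctrl 1 or 4, with limma-voom, or with the 2 groups fitted alone (adjusted p = 0.051 to 0.21). Adamts20 averaged 3.31 ± 0.396 CPM in Young_Ctrl, 2.20 ± 0.533 in Young_CL, 2.12 ± 0.620 in Old_Ctrl and 1.03 ± 0.271 in Old_CL (SD), and the aged CL libraries were below all aged vehicle and all young CL libraries. It was lower with CL in aged mice (edgeR log2 change -1.07, SE 0.27, adjusted p = 0.0048) and with age under CL (edgeR log2 change -1.11, SE 0.26, adjusted p = 0.0035), the first call being lost without Old_Ctrl 3, or without the 5 muscle-rich libraries (adjusted p = 0.058 to 0.15). Adamts8 was not called in any comparison in the fit of all libraries. Without Young_Ctrl 1, where it was lowest in its group, it was called lower with CL in young mice (-0.98, edgeR adjusted p = 0.0052) and in aged mice (-0.88, edgeR adjusted p = 0.01).

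Adamts2, Adamts3 and Adamts14 remove the N-propeptide of fibrillar procollagens. Adamts2 stood at 113, 112, 78.6 and 81.6 CPM in Young_Ctrl and 81.5, 103, 76.4 and 29.6 in Young_CL. The aged Adamts2 values were 183, 139.9 and 212 in Old_Ctrl and 123, 127, 106 and 117 in Old_CL. The aged libraries were above the young ones under each treatment. The call under vehicle (edgeR log2 change 0.89, SE 0.29, adjusted p = 0.033) was lost without Young_Ctrl 3 or 4 or Old_Ctrl 1 or 4, with limma-voom, or with Old_CL 1, 2 and 4 summed (adjusted p = 0.055 to 0.14), and the difference under CL was 0.70 (edgeR adjusted p = 0.051). The latter was called by limma-voom (log2 change 0.87, adjusted p = 0.032) and by DESeq2 (0.66, adjusted p = 0.033), and by edgeR without Young_CL 2, Young_CL 4 or Old_Ctrl 3. Adamts14 stood at 6.45, 9.63, 7.01 and 6.62 CPM in Young_Ctrl and 5.65, 6.10, 6.63 and 7.19 in Young_CL. The aged Adamts14 values were 16.4, 7.13 and 9.73 in Old_Ctrl and 6.42, 7.21, 5.20 and 5.73 in Old_CL. It was lower with CL in aged mice (edgeR log2 change -0.81, SE 0.23, adjusted p = 0.0099), but not without Old_Ctrl 1 (adjusted p = 0.075). Adamts3 was not called in any comparison.

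Adamts12 and Adamts7, close relatives that cut cartilage oligomeric matrix protein, were higher with CL in young mice. Adamts12 stood at 15.9, 15.6, 11.9 and 12.4 CPM in Young_Ctrl and 18.8, 23.7, 18.9 and 28.9 in Young_CL. The aged Adamts12 values were 18.7, 14.1 and 23.0 in Old_Ctrl and 40.4, 41.2, 28.5 and 41.7 in Old_CL. At each age all CL libraries were above all vehicle libraries (edgeR log2 change 0.71, SE 0.19, adjusted p = 0.006 in young and edgeR log2 change 1.03, SE 0.20, adjusted p = 7.4e-04 in aged mice). It was also higher with age under CL (edgeR log2 change 0.74, SE 0.18, adjusted p = 0.0042), though not with Old_CL 1, 2 and 4 summed, or without the 5 muscle-rich libraries (adjusted p = 0.056 to 0.12). Adamts7 stood at 5.92, 5.24, 4.03 and 3.17 CPM in Young_Ctrl and 6.08, 8.12, 7.46 and 9.53 in Young_CL. The aged Adamts7 values were 5.48, 5.31 and 5.77 in Old_Ctrl and 6.13, 7.33, 5.35 and 7.28 in Old_CL. Its rise with CL in young mice (edgeR log2 change 0.79, SE 0.19, adjusted p = 0.0044) had no overlap between the groups, and in aged mice the change was 0.24 (edgeR adjusted p = 0.35).

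Adamts10, Adamts6 and Adamts17 are related to fibrillin microfibrils. Adamts10 stood at 99.6, 125, 110.1 and 122 CPM in Young_Ctrl and 65.8, 65.7, 89.6 and 79.4 in Young_CL. The aged Adamts10 values were 79.1, 93.8 and 64.8 in Old_Ctrl and 79.4, 86.4, 52.7 and 78.9 in Old_CL. All Young_Ctrl libraries were above all Young_CL and all Old_Ctrl ones. It was lower with CL in young mice (edgeR log2 change -0.61, SE 0.16, adjusted p = 0.0054) and with age under vehicle (edgeR log2 change -0.53, SE 0.17, adjusted p = 0.032). These calls were lost without the 5 muscle-rich libraries (adjusted p = 0.064) and without Young_Ctrl 2, 3 or 4 or Old_Ctrl 1 or 4, or with the 2 groups fitted alone (adjusted p = 0.057 to 0.15) respectively. Adamts6 stood at 6.45, 9.20, 11.3 and 9.52 CPM in Young_Ctrl and 5.86, 3.65, 6.46 and 5.66 in Young_CL. The aged Adamts6 values were 6.48, 6.22 and 2.87 in Old_Ctrl and 8.49, 5.83, 3.03 and 5.45 in Old_CL. The groups overlapped. Its call with CL in young mice (edgeR log2 change -0.79, SE 0.31, adjusted p = 0.049) was lost without Young_Ctrl 2, 3 or 4 or Young_CL 1, 2 or 4 or Old_Ctrl 1 or Old_CL 2 or 4, with no filter, with Old_CL 1, 2 and 4 summed, without the 5 muscle-rich libraries, or with the muscle score as a covariate (adjusted p = 0.052 to 0.27).

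The remaining ADAMTS genes were of low level. Adamts17 averaged 0.977 ± 0.0773 CPM in Young_Ctrl, 0.777 ± 0.368 in Young_CL, 0.995 ± 0.132 in Old_Ctrl and 0.578 ± 0.197 in Old_CL (SD). Its call with CL in aged mice (edgeR log2 change -0.86, SE 0.33, adjusted p = 0.044) was lost without Young_Ctrl 2, 3 or 4 or Young_CL 2 or Old_Ctrl 1, 3 or 4 or Old_CL 2 or 3, with DESeq2, with no filter, with Old_CL 1, 2 and 4 summed, or without the 5 muscle-rich libraries (adjusted p = 0.052 to 0.25). Adamts13, the protease of von Willebrand factor, averaged 1.24 ± 0.243 CPM in Young_Ctrl, 0.931 ± 0.346 in Young_CL, 1.37 ± 0.528 in Old_Ctrl and 0.578 ± 0.165 in Old_CL (SD), and its fall with CL in aged mice (edgeR log2 change -1.31, SE 0.38, adjusted p = 0.011) was lost without Old_Ctrl 3, or without the 5 muscle-rich libraries (adjusted p = 0.13 to 0.25, log2 change -0.62 without the 5 muscle-rich libraries). Adamts16 averaged 2.73 ± 0.926 CPM in Young_Ctrl, 1.18 ± 0.767 in Young_CL, 0.699 ± 0.334 in Old_Ctrl and 0.283 ± 0.106 in Old_CL (SD), and was lower in aged mice under vehicle (edgeR log2 change -1.88, SE 0.52, adjusted p = 0.017) and under CL (edgeR log2 change -2.21, SE 0.56, adjusted p = 0.0059). The first of these was lost without Old_Ctrl 4 (adjusted p = 0.089, log2 change -2.52 without Old_Ctrl 3, log2 change -2.58 without the 5 muscle-rich libraries), and the second without the 5 muscle-rich libraries (adjusted p = 0.61, log2 change 0.89 without the 5 muscle-rich libraries).

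Among the ADAMTS-like genes, Adamtsl2 and Adamtsl1 changed most with CL in aged mice, in opposite directions. Adamtsl2, whose product binds fibrillin and a latent TGF-β binding protein, averaged 1.85 ± 0.502 CPM in Young_Ctrl, 1.24 ± 0.218 in Young_CL, 1.40 ± 0.634 in Old_Ctrl and 4.25 ± 0.778 in Old_CL (SD). All Old_CL libraries were above all other libraries. It rose with CL in aged mice (edgeR log2 change 1.47, SE 0.27, adjusted p = 6.2e-04) and was higher with age under CL (edgeR log2 change 1.82, SE 0.26, adjusted p = 1.1e-04), against a change with CL in young mice of -0.63 (edgeR adjusted p = 0.081). That change was called without Old_Ctrl 1 (-0.63, edgeR adjusted p = 0.046). The difference between the CL effects (edgeR log2 change 2.10, SE 0.39, adjusted p = 0.0073) was the member interaction with the smallest p and was kept in every fit that left out 1 library. It was lost without the 5 muscle-rich libraries (adjusted p = 0.10).

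Adamtsl1, or punctin, stood at 13.5, 19.3, 14.4 and 16.7 CPM in Young_Ctrl and 14.3, 16.1, 16.2 and 3.64 in Young_CL. The aged Adamtsl1 values were 29.1, 22.3 and 26.6 in Old_Ctrl and 8.13, 8.40, 8.70 and 8.67 in Old_CL. The Old_CL libraries were even and below all Old_Ctrl ones, and Young_CL 4 was far below its group. It fell with CL in aged mice (edgeR log2 change -1.61, SE 0.32, adjusted p = 0.001). In young mice its change was -0.35 (edgeR adjusted p = 0.36), or -2.15 without the 5 muscle-rich libraries, against Young_CL 4 alone. Adamtsl5 stood at 13.4, 21.0, 12.9 and 15.6 CPM in Young_Ctrl and 12.7, 18.1, 16.1 and 8.73 in Young_CL. The aged Adamtsl5 values were 21.3, 31.7 and 30.4 in Old_Ctrl and 17.4, 15.7, 20.4 and 19.3 in Old_CL. Its rise with age under vehicle (edgeR log2 change 0.84, SE 0.22, adjusted p = 0.012) was lost without Old_Ctrl 4 (adjusted p = 0.058), and its fall with CL in aged mice (edgeR log2 change -0.62, SE 0.21, adjusted p = 0.027) was lost without Old_Ctrl 3 or 4 or Old_CL 1 or 2, with Old_CL 1, 2 and 4 summed, or without the 5 muscle-rich libraries (adjusted p = 0.06 to 0.13). Adamtsl3 stood at 4.87, 6.53, 4.97 and 4.56 CPM in Young_Ctrl and 4.71, 4.30, 5.47 and 3.07 in Young_CL. The aged Adamtsl3 values were 5.48, 9.54 and 7.36 in Old_Ctrl and 4.92, 4.39, 3.61 and 6.39 in Old_CL. It fell with CL in aged mice (edgeR log2 change -0.67, SE 0.23, adjusted p = 0.026), a call lost without Old_Ctrl 3 or Old_CL 2 or 3, with Old_CL 1, 2 and 4 summed, or without the 5 muscle-rich libraries (adjusted p = 0.05 to 0.30). Adamtsl4 was not called in any comparison in the fit of all libraries. Without Young_CL 4 it was called lower with CL in aged mice (-0.54, edgeR adjusted p = 0.0036) and higher with age under vehicle (0.53, edgeR adjusted p = 0.0095). Its change with CL in young mice was -0.56 with all libraries and -2.12 without the 5 muscle-rich ones.

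Lox was the lysyl oxidase that separated the ages most clearly. It stood at 50.9, 59.7, 48.1 and 43.7 CPM in Young_Ctrl and 51.8, 50.2, 41.9 and 24.4 in Young_CL. The aged Lox values were 138, 104 and 179 in Old_Ctrl and 162, 180.0, 170.5 and 150.3 in Old_CL. All 7 aged libraries were above all 8 young ones. The age difference was called under vehicle (edgeR log2 change 1.47, SE 0.21, adjusted p = 6.0e-04) and under CL (edgeR log2 change 1.97, SE 0.21, adjusted p = 7.6e-06), and its log2 difference with CL was -0.26 (edgeR adjusted p = 0.31) in young and 0.24 (edgeR adjusted p = 0.38) in aged mice. Without the 5 muscle-rich libraries the difference under CL was 2.71, against Young_CL 4 alone, the lowest young library, and the young CL change was called (-1.06, edgeR adjusted p = 0.0053).

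Loxl2, Loxl3 and Loxl4 fell with CL in aged mice, as did 22.2% of all genes. Lox and Loxl1 were not called there, but Loxl1 was without the muscle-rich libraries (-0.55, edgeR adjusted p = 0.033). Loxl2 stood at 56.8, 75.0, 48.1 and 57.0 CPM in Young_Ctrl and 52.4, 56.9, 44.6 and 26.7 in Young_CL. The aged Loxl2 values were 144, 54.9 and 87.0 in Old_Ctrl and 43.9, 38.4, 37.4 and 41.9 in Old_CL. All Old_CL libraries were below all Old_Ctrl ones (edgeR log2 change -1.23, SE 0.28, adjusted p = 0.0026). Loxl4 stood at 8.29, 6.19, 5.67 and 7.62 CPM in Young_Ctrl and 5.69, 6.10, 4.47 and 1.62 in Young_CL. The aged Loxl4 values were 11.8, 8.01 and 9.38 in Old_Ctrl and 3.07, 2.82, 3.26 and 2.84 in Old_CL. The aged groups again did not overlap (edgeR log2 change -1.67, SE 0.30, adjusted p = 4.3e-04). With CL in young mice Loxl2 changed by -0.38 (edgeR adjusted p = 0.24) and Loxl4 by -0.59 (edgeR adjusted p = 0.097). Without the 5 muscle-rich libraries, against Young_CL 4 alone, these changes were -1.16 and -2.09. Loxl3 stood at 26.2, 37.4, 31.8 and 38.7 CPM in Young_Ctrl and 29.8, 31.9, 28.0 and 24.4 in Young_CL. The aged Loxl3 values were 45.0, 40.4 and 40.3 in Old_Ctrl and 28.1, 31.3, 31.4 and 28.2 in Old_CL. Its fall was smaller (edgeR log2 change -0.49, SE 0.12, adjusted p = 0.0046). Loxl1, which cross-links elastin, stood at 111, 126, 89.6 and 93.1 CPM in Young_Ctrl and 125, 144, 135 and 62.7 in Young_CL. The aged Loxl1 values were 216, 124 and 157 in Old_Ctrl and 134, 122, 125 and 126 in Old_CL. Its call with age under vehicle (edgeR log2 change 0.66, SE 0.23, adjusted p = 0.047) was lost without Young_Ctrl 1, 3 or 4 or Young_CL 1 or 3 or Old_Ctrl 1 or 4 or Old_CL 1, 2, 3 or 4, with RLE factors, with upper-quartile factors, with no filter, with the 2 groups fitted alone, with Old_CL 1, 2 and 4 summed, or with the muscle score as a covariate (adjusted p = 0.053 to 0.21).

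**Figure D2:**
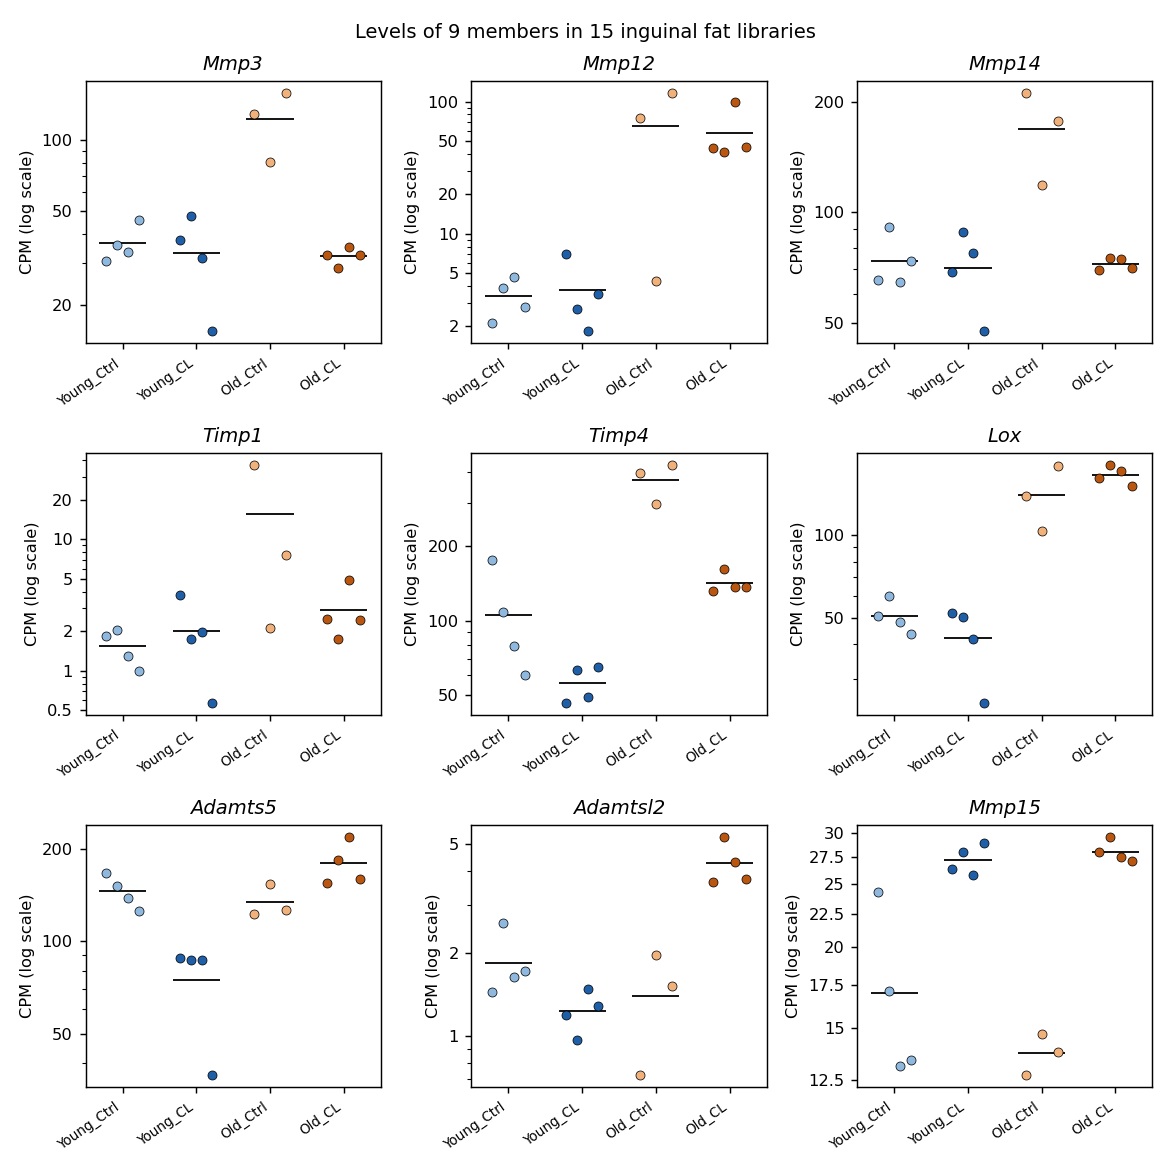
Level in CPM (log scale, a separate range for each gene) of 9 members in each library (points) by group, with the group mean as a line. Timp1 in Old_Ctrl runs from 2.10 to 37.0 CPM, all aged Lox values lie above all young ones, and Mmp15 is higher in the CL libraries than in the vehicle libraries at each age.

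Counted over all members, the libraries of both groups did not overlap for 20 members with age under vehicle (17 higher and 3 lower, 27.1% of all genes), for 28 with CL in aged mice (7 higher and 21 lower, 52.8% of all genes), for 8 with CL in young mice (6 higher and 2 lower, 34.1%) and for 14 with age under CL (13 higher and 1 lower, 44.9%). Markers of fibroblasts and progenitors, the cells that make much of this matrix, also moved with age under vehicle and with CL in aged mice. Their sum ran from 4069 to 5814 CPM in Young_Ctrl, 2209 to 5769 in Young_CL with Young_CL 4 the lowest, 5022 to 11700 in Old_Ctrl and 2985 to 3286 in Old_CL. Of 10 markers 6 rose with age under vehicle (15.1% of all genes) and 9 fell with CL in aged mice (22.2%). In young CL 1 rose and 2 fell (21.7% and 22.1% of all genes). Col1a1, Col3a1, Dcn and Lum are among these markers and also in the list of substrates below, so the lists are not independent. With age under CL 3 of the markers were lower (19.4% of all genes) and 0 higher (20.5%). None of them was at 0 in every library, and their part in the member changes was not tested.

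**Figure D3:**
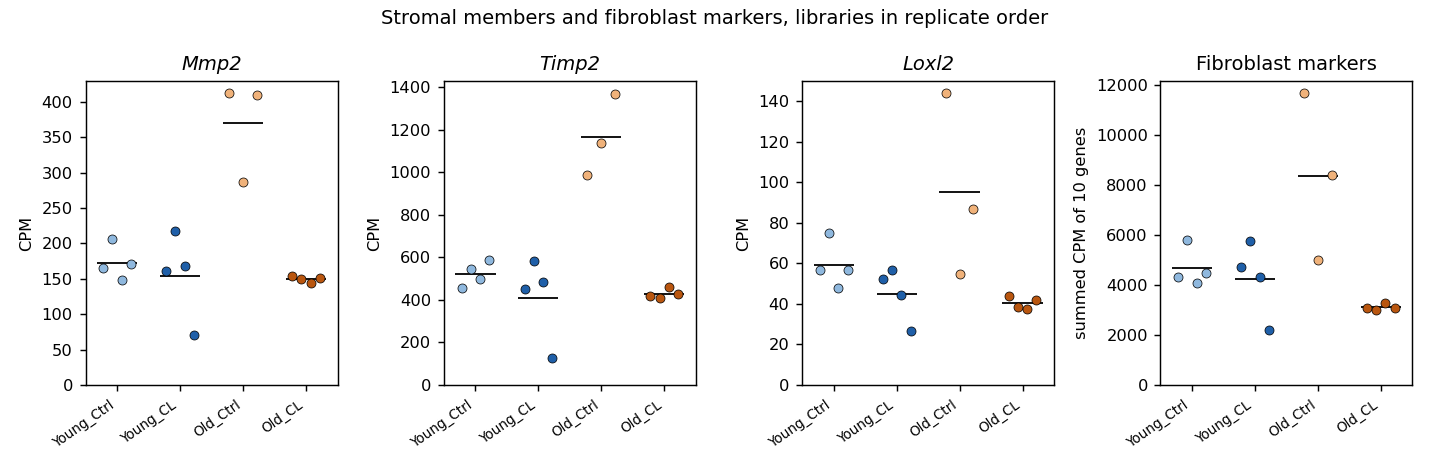
Level in CPM of Mmp2, Timp2 and Loxl2 and the summed CPM of 10 fibroblast and progenitor markers (y axes from 0) in each library (points) by group, with the group mean as a line. Old_Ctrl is the highest group by its mean in all 4 panels, Young_CL 4 is the lowest Young_CL library in each, and Old_Ctrl 3 is the lowest of its group for Mmp2, Loxl2 and the markers.

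The CL comparisons at the 2 ages share no library. Of the 46 tested members 27 were below 0 and 7 above 0 at both ages, 5 were above in young and below in aged mice, and 7 the reverse. Across these 46 genes, which are not replicates, the log2 changes at the 2 ages had a Pearson r of 0.48. Neither the counts of directions nor r were obtained over all genes, so they describe the members without setting them apart. Adamts9, Adamts12 and Mmp15 were called higher at both ages and Timp4 lower at both. A further 9 members were called in young mice alone and 21 in aged mice alone, but only the 6 interaction calls (Mmp14, Mmp25, Mmp23, Mmp3, Adamts5 and Adamtsl2) test a difference between the ages. Of all genes 43.9% were called with CL in young and 45.2% in aged mice. How many were called at both ages was not counted over all genes, so this split is not shown to be particular to the members. Leaving out Young_CL 4 raised these to 12 by adding Timp2, Loxl4, Adamtsl1, Mmp2, Mmp27 and Loxl1, and leaving out Old_Ctrl 4 left 1. The interaction calls over all genes moved likewise, from 1083 to 2070 without Young_CL 4 and to 431 without Old_Ctrl 4.

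**Figure D4:**
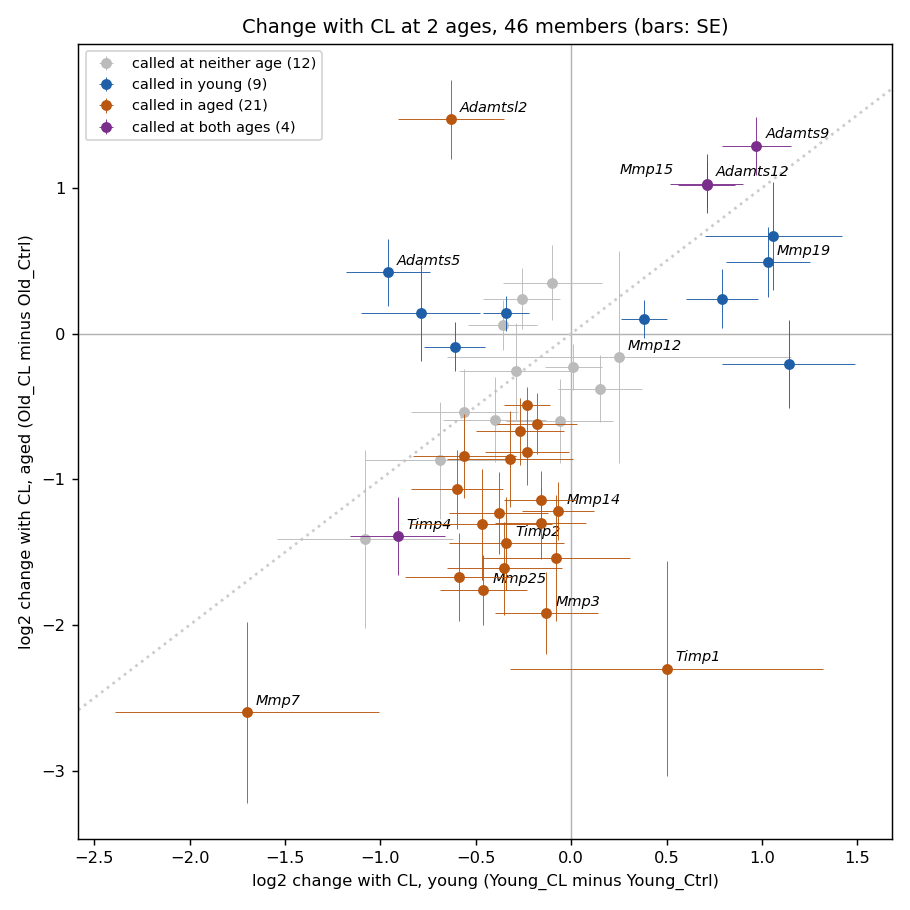
Log2 change with CL in young mice (x axis) against aged mice (y axis) for the 46 tested members, with bars of 1 SE, a dotted line of equal change and colours for the age at which a gene was called. Of the points 27 lie below 0 on both axes and 7 above 0 on both, and 4 were called at both ages.

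Other proteases, activators and inhibitors of matrix breakdown were taken as a list of 35 genes, of which 28 were tested. With age under vehicle 13 were called, 46.4% of the 28 against 27.2% of all genes. All rose, among them Adam12 (edgeR log2 change 1.78, SE 0.29, adjusted p = 0.0012), a membrane disintegrin protease, the serine protease Htra3 (1.21, edgeR adjusted p = 0.002), Adam9 (0.52, edgeR adjusted p = 0.0034) and Pcolce (1.07, edgeR adjusted p = 0.0034), the enhancer of procollagen C-proteinase. With CL in aged mice 4 rose and 10 fell (14 of the 28, against 45.2% of all genes), including Adam19 (-0.92, edgeR adjusted p = 4.2e-05), Pcolce (-1.18, edgeR adjusted p = 5.6e-04), the fibroblast protease Fap (-0.75, edgeR adjusted p = 8.8e-04) and the membrane inhibitor of MMPs Reck (-1.19, edgeR adjusted p = 9.6e-04). With CL in young mice 4 rose and 5 fell, 32.1% against 43.9%. Adam12 (edgeR log2 change 2.57, SE 0.28, adjusted p = 5.6e-06), the proprotein convertase Furin (0.77, edgeR adjusted p = 1.2e-05) and the MMP inducer Bsg (0.93, edgeR adjusted p = 9.2e-05) rose, and Adam19 fell (-0.57, edgeR adjusted p = 8.2e-04). With age under CL 9 were higher and 1 lower, 35.7% against 40.0%, the smallest p-values being those of Htra3 (1.98, edgeR adjusted p = 9.0e-06), the endocytic receptor Lrp1 (1.46, edgeR adjusted p = 3.3e-05), Adam9 (0.71, edgeR adjusted p = 7.3e-05) and Htra1 (1.0, edgeR adjusted p = 4.1e-04). The CL effect was lower in aged than in young mice for Adam12 (-1.56, edgeR adjusted p = 0.027) and Pcolce (-1.06, edgeR adjusted p = 0.043), 7.14% of the list against 7.08% of all genes.

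Substrates and cross-linking partners were taken as a list of 34 genes, 32 of them tested. With age under vehicle 19 rose, 59.4% of the 32 against 27.2% of all genes called, led by the thrombospondins Thbs2 (edgeR log2 change 2.12, SE 0.22, adjusted p = 4.9e-05) and Thbs1 (1.29, edgeR adjusted p = 6.4e-05), the proteoglycan Bgn (1.35, edgeR adjusted p = 3.0e-04) and Fbln2 (1.85, edgeR adjusted p = 4.3e-04). With CL in aged mice 3 rose and 11 fell, 43.8% against 45.2%. The collagen chain Col1a2 (edgeR log2 change -1.94, SE 0.34, adjusted p = 4.4e-04) and the collagen-binding proteoglycans Dcn (-1.32, edgeR adjusted p = 0.0013), Lum (-1.13, edgeR adjusted p = 0.0022) and Fmod (-0.69, edgeR adjusted p = 0.0027) had the smallest p-values. In young mice CL changed 3, or 9.38% against 43.9%: Fmod (-0.75, edgeR adjusted p = 0.0011) and Thbs1 (-0.36, edgeR adjusted p = 0.04) fell and Lum rose (0.64, edgeR adjusted p = 0.037). With age under CL 12 were higher and 1 lower, 40.6% against 40.0%, led by Thbs1 (1.82, edgeR adjusted p = 2.7e-07), Thbs2 (2.40, edgeR adjusted p = 1.5e-06), Bgn (1.64, edgeR adjusted p = 6.2e-06) and Fbln5 (1.83, edgeR adjusted p = 2.3e-05). The CL effects differed between the ages for Lum (-1.77, edgeR adjusted p = 0.0094) and Col1a2 (-1.70, edgeR adjusted p = 0.039), 6.25% against 7.08%.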

How the data were processed

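PolyA RNA-seq of inguinal white adipose tissue was used as the gene counts the authors deposited, 1 integer table of 24015 genes and 15 libraries. STAR alignment to mm9 and counting per gene by featureCounts (Subread) are named in the submitters' processing notes without versions. Strand use is not given in the sources used here. Because the reference tables are of another assembly, only the 3 promoters carry coordinates. The members and lists were chosen with earlier results of these data known.

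Genes were kept with filterByExpr of edgeR by group (15288 genes) and scaled by TMM, and levels are TMM-scaled CPM. The test was edgeR's quasi-likelihood F test (version 4.0.16, R 4.3.3, robust, all 15 libraries, 1 mean per group), with Benjamini-Hochberg adjustment over all tested genes. An SE was obtained by dividing the size of the log2 change by the root of F. Every member called in at least 1 comparison is named, with values per library where its average log2 CPM was at least 2 or it is a TIMP or lysyl oxidase. Pathway lists are given by counts and up to 4 called genes of smallest p, and Adamts4 is shown per library beside Adamts5. Cell type markers are summed CPM.

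The alternatives tried were limma-voom (limma 3.58.1), DESeq2 1.42.0, RLE or upper-quartile factors, no filter, a stricter filter, a filter at 0.5 CPM, the 2 groups alone, a replicate block, Old_CL 1, 2 and 4 summed, the 5 muscle-rich libraries left out, a muscle or B cell score as covariate, and each library left out. On simulated counts of the same design 81% of 2-fold and 92% of 4-fold changes were recovered for CL in young mice, and 77% and 95% for CL in aged mice. The same shares for the age comparisons were 67% and 97% (vehicle) and 73% and 97% (CL), and those of the interaction 52% and 85%. Of the calls made there, 3.52% to 4.42% were of unchanged genes. The simulation changed far fewer genes than were called in these data and set no muscle or lymph node differences between libraries. Its shares may therefore not hold for these data.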

Additional observations from a re-analysis of the deposited data

Results flagged for a closer look

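In 8 of 138 sets of 4 libraries, 1 library stood apart from the others by Dixon's criterion, where chance gives about 1 in 20, or 6.9. Of these 8, 4 were in Old_CL 3, 3 in Young_CL 4 and 1 in Young_Ctrl 1. Adamts5 stood at 36.6 CPM in Young_CL 4 against 86.7 to 87.9 in the other 3 libraries, and Adamtsl1 at 3.64 against 14.3 to 16.2. Adamts4 stood at 2.26 CPM in Young_CL 4, above the others at 0.994 to 1.10, and at 2.85 in Old_CL 3, against 2.11 to 2.21. Old_CL 3 was also high for Mmp12, at 98.7 CPM against 41.9 to 45.0. It was low for Mmp28, at 35.5 against 43.0 to 44.1, and for Adamts12, at 28.5 against 40.4 to 41.7. Adamts8 stood at 0.263 CPM in Young_Ctrl 1 against 2.15 to 2.39.

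The CL effect differed between the ages for 6 members by the edgeR interaction test. On the log2 scale, the effect in aged minus that in young mice was 2.10 for Adamtsl2 (edgeR adjusted p = 0.0073) and 1.38 for Adamts5 (0.02). It was -1.79 for Mmp3 (edgeR adjusted p = 0.017), -1.16 for Mmp14 (0.021), -1.30 for Mmp25 (0.029) and -0.98 for Mmp23 (0.043). Without the 5 muscle-rich libraries the Adamts5 difference was 2.41. That fit keeps Young_CL 4 alone in its group, the library apart for Adamts5 at 36.6 CPM. The differences there were 2.25 for Adamtsl2, -0.94 for Mmp3, -0.79 for Mmp14, -1.23 for Mmp25 and -0.05 for Mmp23.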

How the results depend on the processing

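With 1 library left out at a time, called members ranged from 10 to 15 with CL in young mice, 19 to 29 with CL in aged mice, 11 to 24 with age under vehicle, 13 to 20 with age under CL and 1 to 12 in the interaction. Leaving out the 5 muscle-rich libraries makes Young_CL 4 the lone sample of its group, assumed to vary like the others. The median change of the members with CL in young mice was then -0.54, against -0.1 over all genes. The direction of the age difference under CL then reversed for Adamts4 (-0.09), Adamts16 (0.89), Adamtsl1 (1.17), Mmp23 (0.73), Mmp2 (1.07), Mmp3 (0.98) and Mmp27 (1.10), and that of CL in young mice for Loxl1 (-0.75). With the B cell score as a covariate edgeR called 3 members with CL in young mice, 6 with age under CL and 0 with age under vehicle. Adamts6 (0.52) and Mmp24 (-0.03) with CL in young mice and Adamts10 (0.16) with age under vehicle reversed there. With Old_CL 1, 2 and 4 summed 1 member was called in the interaction. The cause of these changes was not tested. Counts over all genes also moved by over 1.5 times. They went for CL in young mice from 6706 to 2974 without the muscle-rich libraries and 1296 with the B cell covariate, for CL in aged mice from 6916 to 3985 with the latter, for age under vehicle from 4162 to 29 with it and 1877 with the 2 groups alone, and for age under CL from 6108 to 1869, 2323 and, with the libraries summed, 3818. For the interaction 1083 became 1842 with DESeq2, 641 with the replicate block, 139 with the libraries summed, 203 without the muscle-rich ones and 685 with the muscle covariate. Leaving out 1 library gave interaction counts from 431 (without Old_Ctrl 4) to 2070 (without Young_CL 4), and that of age under vehicle fell to 1739 without Old_Ctrl 4, 2450 without Young_Ctrl 3 and 2606 without Young_Ctrl 4.

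Calls kept in every alternative that tested the gene, the B cell covariate apart, were 6 of 13 with CL in young mice, 17 of 25 with CL in aged mice (Mmp7 among them, tested in 21 of 28 alternatives), 9 of 20 with age under vehicle, 7 of 16 with age under CL and 0 of 6 in the interaction by edgeR. Same-numbered libraries did not deviate together: of 21 such pairs 6 had a correlation over 0.1 (r from -0.347 to 0.343), against 20 of 63 other pairs, and 4 of 15 libraries correlated best with their own number. With the replicate number as a block 13, 23, 20, 14 and 4 members were called in the 5 comparisons in the order above. Depth limits genes near 3 counts, such as Mmp7 and Adamts18.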
